A study of Mus musculus with 6 samples.

Results

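Interferon-stimulated genes are the genes that cells switch on when interferons bind their receptors, and 37 of them, chosen by name, were followed in regenerating mouse liver with and without Socs3 in hepatocytes. Of the 37, 34 had a probe set assigned to a single gene. Testing was limited to genes whose log2 value exceeded 4 on 3 or more of the 6 arrays, and 27 members met this, among 8554 genes tested in all. Each gene was read from its brightest single-gene probe set. By what is generally known of their induction, 27 members were classed as type I-like, of which 18 were tested. The other 10 were classed as IFN-gamma-like, of which 9 were tested. Members and classes were chosen with earlier results of these data known, so counts over them are descriptive. Each of the 27 tested members exceeded a log2 value of 4 in all 6 arrays, so none passed the filter through a single group.

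The study compared whole livers taken 18 hours after partial hepatectomy, which is the removal of most of the organ, on 6 Affymetrix mouse genome arrays. Cre plus livers (n = 3 arrays, named A, B and C) came from C57BL/6 mice with both Socs3 alleles floxed and a Cre recombinase driven by the albumin promoter, which is active in hepatocytes. Cre minus livers (n = 3 arrays, also A, B and C) came from Socs3 fl/fl littermates without the transgene. All mice were held free of Helicobacter and of specific pathogens, and both groups carried the floxed alleles and underwent the same operation. The deletion is aimed at hepatocytes, and Socs3 in the other cells of the liver was not measured apart. None of the arrays used here came from an unoperated liver or from a control with Cre alone. The labels do not state that each array came from a separate mouse, so the p-values reflect only how these samples vary, and that variation may be technical.

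Type I interferons (IFN-alpha and IFN-beta) activate a complex of STAT proteins with IRF9 that binds a promoter element named ISRE, and they induce antiviral genes such as the OAS and IFIT families. Interferon gamma, made mainly by T and NK cells, acts through a STAT dimer that binds an element named GAS, and it induces IRF1, the guanylate-binding proteins and the chemokine CXCL9. Many genes answer to both. SOCS3 restrains cytokine receptors that signal through gp130, such as the IL-6 receptor, while its relative SOCS1 is a main restraint on interferon gamma in liver.

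Promoter sequence was not used to choose the members. RefSeq promoter windows of 300 bases (250 before to 50 after the start, GRCm38.p6) were at hand for 28 of the 37 members, in 34 windows. An ISRE-like motif, GAAA followed by any 2 bases and GAAA again, searched on both strands, occurred in 17 of the 34 windows (50.0%) and in 3.44% of all 32851 windows. A form 1 base shorter, ending in GAA, which every match of the longer form also contains, occurred in 19 of 34 (55.9%) against 8.56%. The GAS-like letters TTCNNNGAA, on either strand, occurred in 7 of 34 (20.6%) against 8.30%. By class, the longer ISRE-like form was found in 12 of 23 type I-like windows (52.2%) and 5 of 11 IFN-gamma-like windows (45.5%), and the GAS-like form in 4 of 23 (17.4%) and 3 of 11 (27.3%). A match is a description of letters, and binding was not measured.

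The 250 bases before the start are shown for 6 members. They are the chemokine genes Cxcl9 and Cxcl10, which lie 20810 bases apart by their starts and had very different values, the GTPase genes Gbp2 and Gbp3, which had high values in the same arrays, and Ifit3 and Oas1a, type I-like genes high in Cre plus A. Each is written 5′ to 3′ on the gene's own strand, with RefSeq GRCm38.p6 coordinates and with matches to any of the 3 motifs in capitals.
Cxcl9, chr5:92328080-92328329, minus strand: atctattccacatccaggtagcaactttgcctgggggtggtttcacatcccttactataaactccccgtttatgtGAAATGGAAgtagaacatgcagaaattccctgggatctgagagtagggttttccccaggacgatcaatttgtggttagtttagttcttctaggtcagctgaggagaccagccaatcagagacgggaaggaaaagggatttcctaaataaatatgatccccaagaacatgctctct
Cxcl10, chr5:92348890-92349139, minus strand: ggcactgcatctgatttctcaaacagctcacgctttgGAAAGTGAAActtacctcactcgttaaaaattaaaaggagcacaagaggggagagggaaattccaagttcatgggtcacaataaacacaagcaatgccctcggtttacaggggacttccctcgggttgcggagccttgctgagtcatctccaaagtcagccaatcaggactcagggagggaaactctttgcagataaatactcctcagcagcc
Gbp2, chr3:142620413-142620662, plus strand: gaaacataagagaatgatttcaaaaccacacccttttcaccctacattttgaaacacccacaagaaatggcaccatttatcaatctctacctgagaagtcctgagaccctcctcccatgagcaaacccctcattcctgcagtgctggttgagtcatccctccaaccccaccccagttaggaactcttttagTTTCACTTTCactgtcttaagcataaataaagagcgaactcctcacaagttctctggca
Gbp3, chr3:142559794-142560043, plus strand: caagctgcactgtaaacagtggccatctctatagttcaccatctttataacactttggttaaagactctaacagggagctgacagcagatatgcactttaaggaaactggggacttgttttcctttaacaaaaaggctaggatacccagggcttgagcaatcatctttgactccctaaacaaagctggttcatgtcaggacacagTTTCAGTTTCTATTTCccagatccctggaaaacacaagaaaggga
Ifit3, chr19:34583279-34583528, plus strand: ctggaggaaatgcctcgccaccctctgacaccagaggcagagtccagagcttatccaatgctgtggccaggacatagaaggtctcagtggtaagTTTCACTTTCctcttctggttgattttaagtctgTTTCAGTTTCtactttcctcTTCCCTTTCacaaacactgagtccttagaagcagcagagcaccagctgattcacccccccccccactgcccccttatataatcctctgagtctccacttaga
Oas1a, chr5:120907526-120907775, minus strand: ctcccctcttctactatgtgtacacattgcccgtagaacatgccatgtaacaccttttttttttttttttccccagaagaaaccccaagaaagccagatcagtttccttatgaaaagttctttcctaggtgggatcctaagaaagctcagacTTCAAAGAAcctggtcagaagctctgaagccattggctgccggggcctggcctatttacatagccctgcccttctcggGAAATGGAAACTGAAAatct
Cxcl10, Gbp2, Gbp3, Ifit3 and Oas1a hold the longer ISRE-like form in these bases, and Cxcl9 only the shorter form, at bases -175 to -167 from the start. In Gbp2 the match lies at -59 to -50 on the opposite strand. In Gbp3 a pair of overlapping matches spans -45 to -30, and in Oas1a another overlapping pair spans -20 to -5.

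Values are log2 signals after GCRMA, a method that subtracts a background estimated from probe sequence and scales the arrays to a common distribution. Levels of different genes are not compared, since each probe set binds with its own strength. Values of a gene are given in the order A, B, C, first for Cre minus and then for Cre plus. Pairs of Cre minus arrays correlated at 0.995 and pairs of Cre plus arrays at 0.987 to 0.990. Socs3 read 9.09, 9.30 and 9.24 against 7.44, 6.69 and 7.47, so each Cre plus array lay below each Cre minus array. Its difference was -2.01 ± 0.22 (SE), with limma's adjusted p = 0.0732 over all genes.

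None of the 27 tested members passed limma's test at an adjusted p under 0.05 over all genes, where 0.0234% of the genes passed (2 of 8554). At an unadjusted p under 0.05, 4 members were higher in Cre plus, against 6.62% of all genes, and 0 were lower, against 8.21%. The 4 were Zbp1, Xaf1, Trim30a and Iigp1, and they were also the only 4 of the 27 whose 3 Cre plus values all lay above the 3 Cre minus values. That separation upward was seen in 9.21% of all genes and the separation downward in 11.9%. No member was separated downward on its brightest kept probe set, though a dimmer kept probe set of Ddx58 was. The count of 4 fell to 2 without Cre plus A, 2 without Cre minus B and 1 without Cre minus C. It rose to 6 when Cre minus A, Cre plus B or Cre plus C was left out. The exact permutation test gives p = 0.1 for such a separated gene, the smallest that 3 arrays against 3 allow.

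In value, 22 of the 27 members were higher in Cre plus and 5 lower, where 46.5% of all genes were higher. The median difference was 0.18 on the log2 scale over all members, 0.19 over the type I-like and 0.17 over the IFN-gamma-like members, and -0.01 over all 8554 genes. Without Cre plus A the medians were 0.01, 0.08 and 0.004, with -0.02 over all genes. The median over all members was 0.31 without Cre minus A and 0.38 without Cre plus C.

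Cre plus A carried the highest value of the 6 arrays for 21 of the 27 members (16 of 18 type I-like and 5 of 9 IFN-gamma-like), against 19.7% of all genes. Cre plus B was highest for 2 members (15.4% of all genes) and Cre plus C for 1 (16.2%). Cre plus C was the lowest array for 9 members, against 27.3% of all genes, Cre plus B for 1 (13.9%) and Cre plus A for 0 (18.5%). The median shift from the Cre minus mean was 0.54, 0.12 and 0.004 for Cre plus A, B and C, where the median over all genes was -0.005, -0.005 and -0.03. The shift in Cre plus C was 0.21 when Cre minus A was left out. Each Cre minus array set against the mean of the other 2 gave a median of 0.14 for A, -0.10 for B and -0.03 for C. By that measure 25 of the 27 members were above 0 for Cre minus A, 6 for B and 9 for C. The shift from the Cre minus mean was above 0 for 25 members for Cre plus A, 20 for B and 14 for C. Of all 8554 genes, 5190 were above 0 for Cre minus A and 4178 for Cre plus A. A control array therefore had as many members above 0 as Cre plus A, with a smaller median. Each class had a median shift of 0.54 in Cre plus A. The type I-like median was 0.03 for Cre plus B and 0.08 for C, and the IFN-gamma-like median was 0.15 and -0.07, a difference between classes that was not tested. Cre plus A had 7 members with a shift over 1 (1.16% of all genes), Cre plus B had 1 (0.362%) and Cre plus C had 2 (1.5%). The 7 were Cxcl9, Gbp3, Ifit3, Gbp6, Zbp1, Irf7 and Oas1a.

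**Figure D1:**
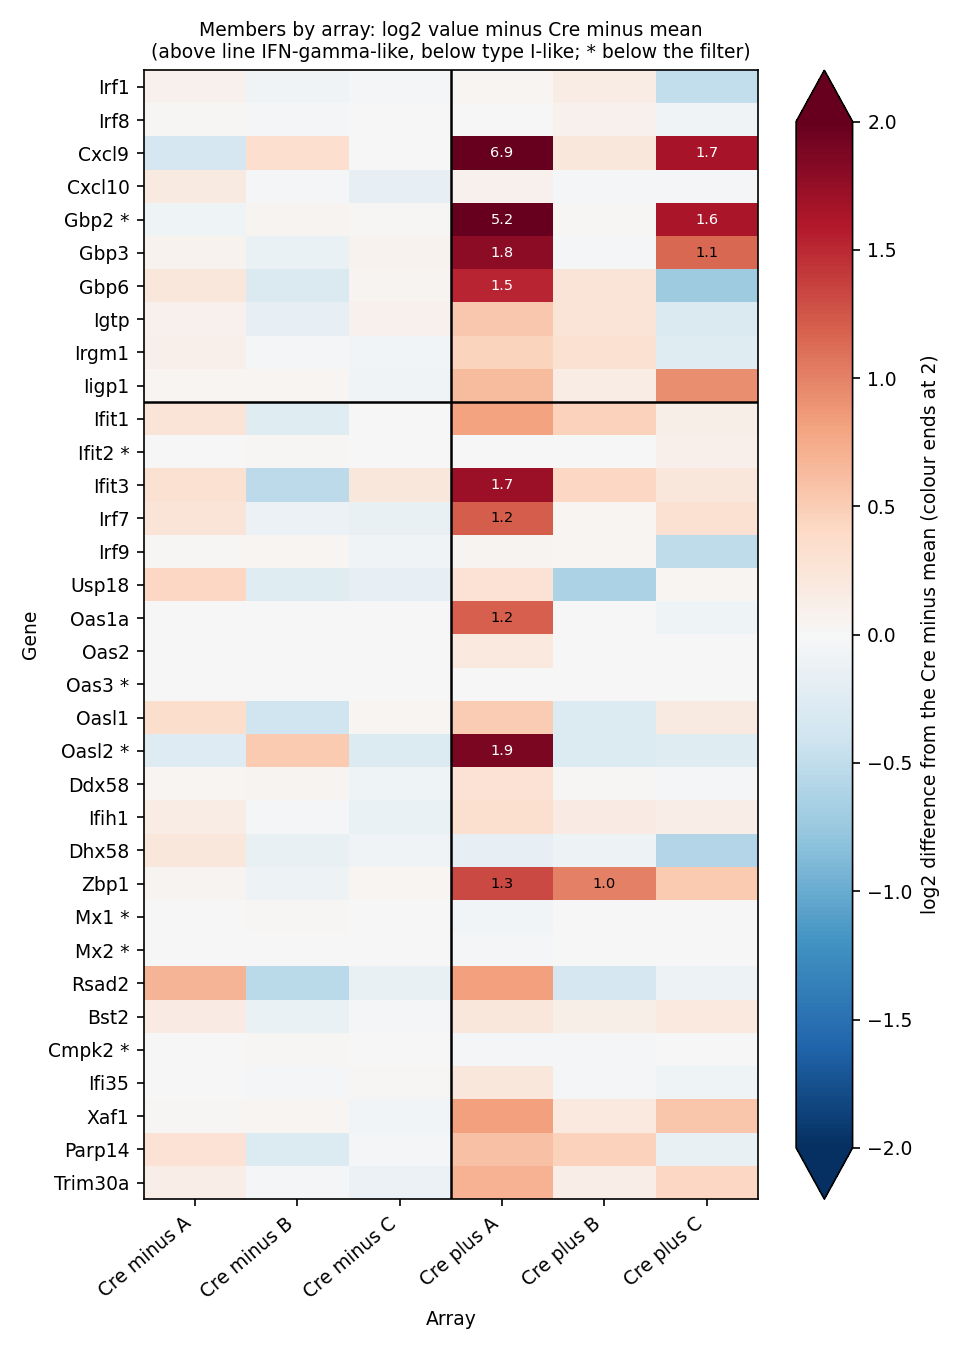
Log2 value of each of the 34 members with a single-gene probe set in each array, minus the gene's Cre minus mean, as colour. Columns are arrays, rows are genes with the IFN-gamma-like class above the line, numbers mark differences over 1, and stars mark genes below the filter; the Cre plus A column is the reddest, reaching 6.92 for Cxcl9 and 5.25 for Gbp2.

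**Figure D2:**
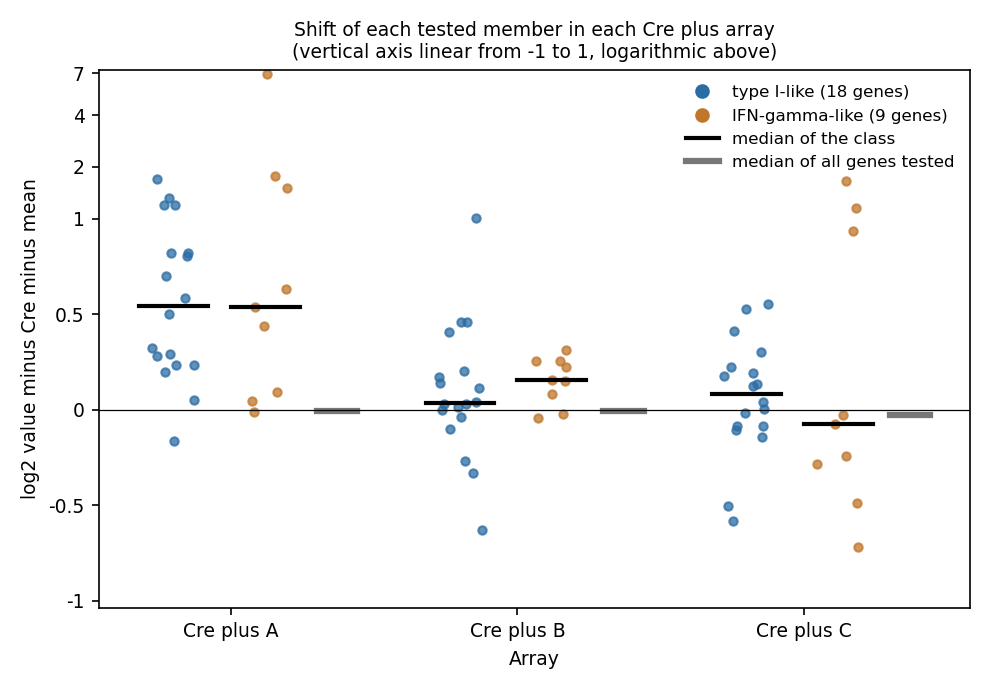
Shift of each of the 27 tested members from its Cre minus mean (vertical axis, log2) for each Cre plus array, by class, with class medians in black and the median of all genes in grey. The medians of both classes lie at 0.54 in Cre plus A and between -0.07 and 0.15 for arrays B and C.

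The chemokine genes gave the widest contrast. Cxcl9, which encodes an attractant of activated T cells and is a classical target of interferon gamma, read 5.16, 5.83 and 5.50 against 12.42, 5.72 and 7.15. Cre plus A stood far above the other arrays, Cre plus C lay above every Cre minus array, and Cre plus B fell inside their range. The shift of 6.92 in Cre plus A ranked 1st of 8554 genes in that array. The dimmer probe set for Cxcl9, which missed the filter, read 3.25, 3.57 and 3.38 against 7.75, 3.54 and 3.98 and so had the same order of arrays in Cre plus. The group difference was 2.93 ± 1.69 (SE; 95% interval -1.21 to 7.08) with limma's adjusted p = 0.472, and 0.94 without Cre plus A. Cxcl10, separated from Cxcl9 by 1 protein-coding gene, encodes a chemokine that binds the same receptor. It read 6.01, 5.82 and 5.68 against 5.93, 5.81 and 5.81. Its groups overlapped fully and its difference was 0.01 ± 0.10 (95% interval -0.23 to 0.25).

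The interferon-inducible GTPases coat or disrupt the vacuoles of intracellular microbes. Gbp2 read 3.23, 3.38 and 3.35 against 8.57, 3.35 and 4.96, and it missed the filter because only Cre plus A and C exceeded 4. It was therefore not tested. Its other probe set read 3.02, 2.97 and 3.04 against 8.33, 2.91 and 5.15. Gbp3, separated from Gbp2 by 1 protein-coding gene on chromosome 3, read 4.95, 4.75 and 4.95 against 6.67, 4.84 and 6.03. Cre plus A and C were thus high for both genes and Cre plus B was not. The difference of Gbp3 was 0.96 ± 0.45 (limma's adjusted p = 0.386) and 0.55 without Cre plus A.

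Iigp1, an immunity-related GTPase, read 12.60, 12.60 and 12.50 against 13.20, 12.71 and 13.50. Its groups did not overlap, and the difference was 0.57 ± 0.20 (95% interval 0.09 to 1.06, limma's adjusted p = 0.279). On its other kept probe set the difference was 0.46, with values of 12.26, 12.43 and 12.26 against 12.91, 12.49 and 12.91. The remaining GTPase genes split within the Cre plus group. Gbp6 read 7.19, 6.66 and 7.02 against 8.47, 7.21 and 6.24, so that Cre plus A was the highest and Cre plus C the lowest of all arrays. Igtp read 9.26, 9.003 and 9.25 against 9.71, 9.43 and 8.89, and Irgm1 read 9.12, 8.99 and 8.97 against 9.47, 9.34 and 8.78, with the same highest and lowest arrays. Their differences were 0.35 ± 0.55, 0.17 ± 0.22 and 0.17 ± 0.18, and without Cre plus A -0.23, -0.01 and 0.03. Array C of the Cre plus group therefore held both directions, since Cxcl9, Gbp2, Gbp3 and Iigp1 were above every Cre minus array while Gbp6, Igtp and Irgm1 were below every one.

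**Figure D3:**
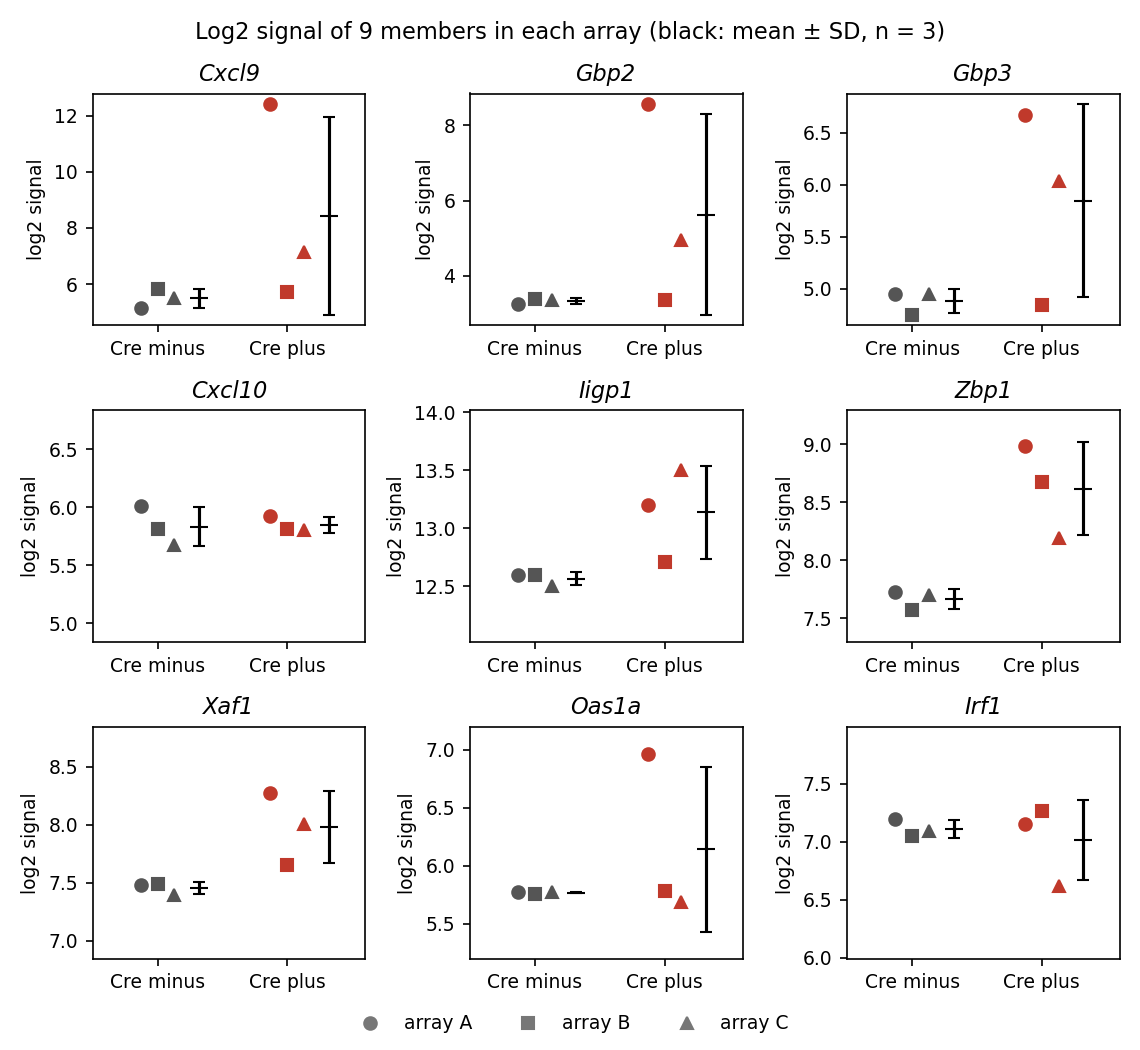
Log2 signal (vertical axes, scaled per gene with a span of at least 2) of 9 members in Cre minus (grey) and Cre plus (red) arrays A (circle), B (square) and C (triangle), with mean ± SD, n = 3. Cxcl9, Gbp2, Gbp3 and Oas1a have their highest point in Cre plus A and Iigp1 has its highest in array C, while Zbp1 and Xaf1 lie above Cre minus in each Cre plus array.

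The IRF transcription factors drive or sustain interferon responses. Irf1, an early target of interferon gamma, read 7.19, 7.05 and 7.09 against 7.16, 7.26 and 6.62, so that Cre plus A lay within the Cre minus range and Cre plus C below it. Its difference was -0.10 ± 0.17, and 0.10 without Cre plus C. Irf8, a factor of myeloid cells, stayed between 5.74 and 5.89 in all 6 arrays. Irf9, the DNA-binding partner in the type I complex, read 7.96, 7.97 and 7.86 against 7.98, 7.96 and 7.43, with only Cre plus C apart, and its difference of -0.14 ± 0.16 was 0.04 without Cre plus C. Irf7, which amplifies type I interferon production and is itself strongly induced by it, read 6.38, 6.01 and 5.98 against 7.33, 6.16 and 6.43. There Cre plus A was the highest array and Cre plus B lay inside the Cre minus range, with a difference of 0.52 ± 0.31 (limma's adjusted p = 0.497) and 0.17 without Cre plus A.

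Among the nucleic acid sensors, Zbp1 had the largest difference. Zbp1, a sensor of Z-form nucleic acid that can trigger necroptosis, read 7.72, 7.57 and 7.70 against 8.99, 8.67 and 8.19. Every Cre plus array was above every Cre minus array, and Zbp1 was the one member with a shift over 1 in Cre plus B, at 1.01. The difference was 0.95 ± 0.20 (95% interval 0.46 to 1.45) with limma's adjusted p = 0.162, and 0.77 without Cre plus A. Its other kept probe set read 5.86, 5.72 and 5.77 against 6.79, 6.601 and 5.85, where Cre plus C did not clear Cre minus A. Ifih1 (MDA5), a sensor of long double-stranded RNA, read 9.01, 8.84 and 8.73 against 9.18, 9.03 and 8.995 and differed by 0.21 ± 0.09 with limma's adjusted p = 0.375. Ddx58 (RIG-I), a sensor of RNA ends, read 5.93, 5.95 and 5.82 against 6.19, 5.93 and 5.88. It differed by 0.10 ± 0.10. Its dimmer kept probe set differed by -0.54, with 4.98, 5.30 and 4.79 against 4.57, 4.78 and 4.12. On that probe set every Cre plus array lay below every Cre minus array. Dhx58 (LGP2), which tunes both, read 4.88, 4.51 and 4.59 against 4.50, 4.56 and 4.08. It was lower in value, at -0.28 ± 0.16, and its groups overlapped.

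The OAS family makes 2′-5′-linked oligoadenylates that activate RNase L. Oas1a read 5.77, 5.76 and 5.77 against 6.96, 5.78 and 5.68, so that only Cre plus A was apart, and its difference went from 0.37 ± 0.34 to -0.04 without that array. Oas2 read 5.17 in each Cre minus array and 5.37, 5.17 and 5.17 in Cre plus, again with Cre plus A alone above the rest. Oasl2 missed the filter, at 3.10, 3.88 and 3.09 against 5.24, 3.09 and 3.12, with the high value once more in Cre plus A. Oasl1 read 5.04, 4.30 and 4.73 against 5.19, 4.42 and 4.87, with array A highest and array B lowest in both groups. The spread within each group was wider than the difference between them, 0.14 ± 0.26. Oas3 stayed between 2.16 and 2.17, at the bottom of the scale, and Oas1g was not analysed here.

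The IFIT proteins bind viral RNA that lacks the host cap marks. Ifit3 read 5.53, 4.71 and 5.45 against 6.93, 5.64 and 5.45, and Ifit1 read 5.37, 4.87 and 5.11 against 5.92, 5.57 and 5.24. Cre plus A was the highest array for both genes, and Cre plus C lay inside the Cre minus range. The differences were 0.78 ± 0.44 and 0.46 ± 0.21, with limma's adjusted p of 0.466 and 0.368, and 0.32 and 0.29 without Cre plus A. Ifit2 stayed between 3.05 and 3.17.

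Of the other antiviral effectors, Xaf1 and Trim30a had separated groups. Xaf1, an antagonist of the apoptosis inhibitor XIAP, read 7.48, 7.49 and 7.39 against 8.27, 7.65 and 8.01. The difference was 0.52 ± 0.16 (95% interval 0.14 to 0.91, limma's adjusted p = 0.240), and 0.38 without Cre plus A. Trim30a, a TRIM protein that restrains Toll-like receptor signalling, read 6.95, 6.79 and 6.70 against 7.51, 6.95 and 7.23, where Cre plus B only just cleared Cre minus A. Its difference was 0.42 ± 0.15 (limma's adjusted p = 0.301). The other kept Trim30a probe set gave 0.52, with 5.26, 5.27 and 5.36 against 6.34, 5.37 and 5.74.

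Bst2 read 9.24, 8.94 and 9.05 against 9.31, 9.19 and 9.27. Parp14 read 6.73, 6.16 and 6.42 against 7.02, 6.89 and 6.29. Ifi35 read 9.98, 9.97 and 10.01 against 10.22, 9.95 and 9.90. Parp14, an ADP-ribosyltransferase, Bst2, which tethers budding virus to the cell surface, and Ifi35, a partner of Nmi, had differences of 0.30 ± 0.24, 0.18 ± 0.09 and 0.04 ± 0.10, and the kept probe sets of Parp14 and Ifi35 disagreed in sign. Rsad2 (viperin), a radical SAM enzyme that makes a chain-terminating nucleotide, read 6.66, 5.44 and 5.82 against 6.79, 5.64 and 5.86. Its Cre minus A value was nearly as high as Cre plus A, and the difference went from 0.13 ± 0.42 to -0.22 without Cre plus A and to -0.14 without Cre minus B. Usp18, which removes ISG15 from proteins and dampens the type I receptor, read 7.85, 7.19 and 7.27 against 7.72, 6.81 and 7.48, a difference of -0.10 ± 0.29. Mx1, a GTPase that is defective in C57BL/6 mice, Mx2 and Cmpk2 stayed under 4 in every array, at 2.93 to 3.00, 2.63 to 2.66 and 3.74 to 3.78. Isg15 was present here only on a probe set assigned to 2 genes and was not read, and Ifi44 was not analysed here.

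**Figure D4:**
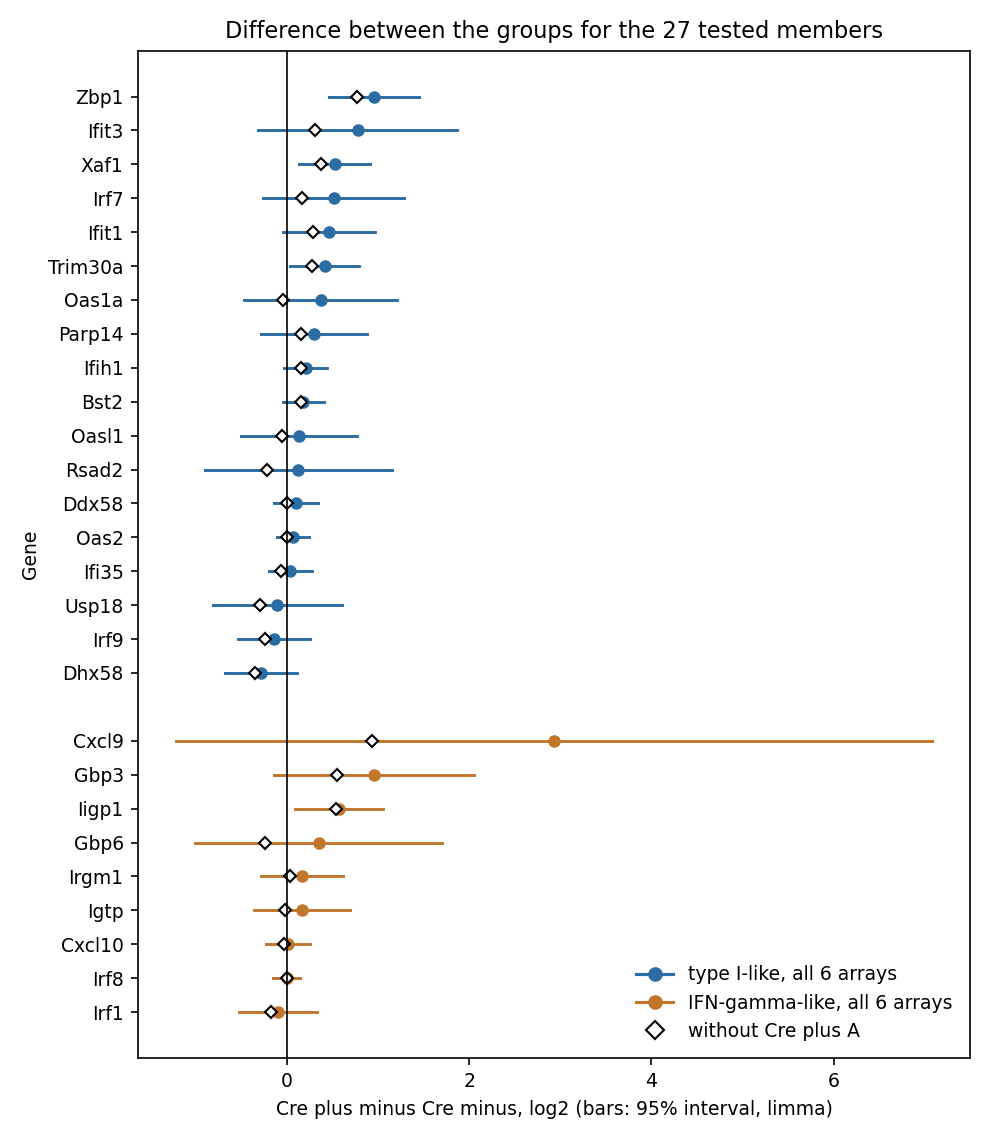
Difference in log2 signal, Cre plus minus Cre minus (horizontal axis, limma estimate with 95% interval, n = 3 and 3), for the 27 tested members by class, with open diamonds for the difference without Cre plus A. The intervals of Zbp1, Xaf1, Trim30a and Iigp1 lie above 0, Cxcl9 has the widest interval, and most diamonds lie to the left of their points.

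Genes upstream in the pathway were read from lists that were chosen with earlier results of these data known. None of the genes in these lists passed over all genes. Of 23 interferon and interferon-inducing cytokine genes, 14 had a single-gene probe set and 1, Il18, passed the filter, with a difference of -0.08 ± 0.19. Ifng read 2.57 to 2.60 and Ifnb1 2.44 to 2.46 in the 6 arrays, at the bottom of the scale, where GCRMA compresses differences. Of 6 receptor genes 5 were tested. Ifnar1, a subunit of the type I receptor, read 6.90, 6.64 and 6.69 against 7.05, 7.02 and 7.05, with separated groups and a difference of 0.30 ± 0.08 (limma's adjusted p = 0.221). Ifngr2 was lower in value at -0.14 ± 0.09, also with separated groups. Its highest Cre plus value, 5.767, lay just under its lowest Cre minus value, 5.77. Thus 1 of the 5 was separated each way, against 9.21% of all genes upward and 11.9% downward. Ifnar2, Ifngr1 and Il10rb differed by 0.04 ± 0.10, 0.01 ± 0.17 and 0.02 ± 0.13.

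The list of kinases and inhibitors of interferon signalling had 11 of 13 genes tested. Of these 2 were higher, and 1, Socs3, was lower, by the unadjusted p, where 6.62% of all genes were higher and 8.21% lower. The higher ones were the phosphatases Ptpn1 (0.72 ± 0.11, limma's adjusted p = 0.0985) and Ptpn2 (0.73 ± 0.13, adjusted p = 0.120), which dephosphorylate JAK kinases and STAT proteins. Ptpn1 read 8.70, 8.63 and 8.86 against 9.49, 9.59 and 9.26, and Ptpn2 read 8.34, 8.55 and 8.49 against 9.20, 8.96 and 9.43, so neither gene had overlapping groups. Jak1 differed by 0.17 ± 0.07, and Socs1 stayed between 1.88 and 1.89, at the bottom of the scale. Of the sensing pathway 9 of 16 genes were tested and 3 were higher at that level (6.62% of all genes) and 0 lower (8.21%). These were the kinase Tbk1 (0.32 ± 0.07), the adaptor Myd88 (0.28 ± 0.07) and Nlrc5, an activator of MHC class I genes (0.44 ± 0.15). Of the other IRF genes 5 of 7 were tested, with the repressor Irf2bp2 higher (0.70 ± 0.14) and Irf3, the factor that starts IFN-beta transcription, lower (-0.33 ± 0.13) at that level, 1 of 5 each way against the same shares.

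A list of 50 other interferon-stimulated genes, of which 32 were tested, gave 7 genes higher by the unadjusted p (6.62% of all genes) and 0 lower (8.21%), and 21 were higher in value (46.5%). Cre plus A was the highest array for 20 of the 32 (19.7% of all genes). Their median difference was 0.05, and -0.01 without Cre plus A. Ifitm3, which blocks entry of enveloped viruses, read 13.08, 13.19 and 13.11 against 13.51, 13.41 and 13.36, a difference of 0.30 ± 0.07 (limma's adjusted p = 0.169). Gbp7, next to Gbp3 on chromosome 3, read 6.16, 5.98 and 5.83 against 6.78, 6.405 and 7.07, a difference of 0.76 ± 0.18 (adjusted p = 0.187). Unlike Gbp3, it was above Cre minus in each Cre plus array. Ifi47, a GTPase, differed by 0.59 ± 0.18, and Tapbp, which helps load peptides on MHC class I, by 0.41 ± 0.12.

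Markers of other liver cells were read beside the members, and in whole liver fewer cells of a type and less RNA per cell cannot be told apart. Of 15 T and NK cell markers, 14 had a probe set and all 14 stayed under 4 in every array, from 1.95 to 3.77. Their log2 summed signal was 6.54 to 6.58 in Cre minus and 6.50 to 6.53 in Cre plus. The 4 B cell markers with a probe set, of 5, were also under 4 in every array, with summed signals of 5.12 to 5.18 and 5.08 to 5.13. Of 10 monocyte and neutrophil markers 7 had a probe set and 3 were tested, with 4 under 4 in every array. Their summed signal was 9.45 to 9.49 in Cre minus, against 10.82, 9.27 and 9.51 for the Cre plus arrays. The neutrophil genes S100a8 (10.10) and S100a9 (9.21) were highest in Cre plus A, where the other arrays read 8.19 to 8.54 and 7.64 to 7.90. The rise of the summed signal rested on these 2 genes. Ccr2, the third tested, read 6.47 in Cre plus A, inside the Cre minus range of 6.43 to 6.58. Cxcr2, Csf3r and Itgam read 3.14, 3.03 and 2.45 there, at the bottom of the scale, where no direction can be read. Chil3 read 3.53 there and 3.20 to 3.22 in the other arrays. Of 14 Kupffer cell and macrophage markers 12 were tested, with 11 lower and 1 higher in value. By the unadjusted p 7 of the 12 were lower (8.21% of all genes) and 1 was higher (6.62%), and 7 had separated groups downward (11.9%). Their summed signals were 12.17 to 12.30 and 11.80 to 12.09. Dendritic cell markers had 2 of 7 tested, with sums of 6.07 to 6.20 and 5.98 to 6.07, and the 8 sinusoidal endothelial markers sums of 11.21 to 11.43 and 10.89 to 11.20. The 7 stellate cell markers had sums of 10.91 to 10.99 and 10.83 to 11.32, and the cholangiocyte markers, 1 of 5 tested, sums of 6.14 to 6.45 and 6.41 to 6.998. The highest cholangiocyte sum, in Cre plus A, rested mainly on Sox9, which read 6.70 there and 5.60 to 5.96 in the other arrays. The other 3 cholangiocyte markers with a probe set stayed under 4 in every array. Hepatocyte markers, 7 of 8 tested, had sums of 17.22 to 17.27 and 17.08 to 17.22. The part of these cells in the values of the members was not tested.

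**Figure D5:**
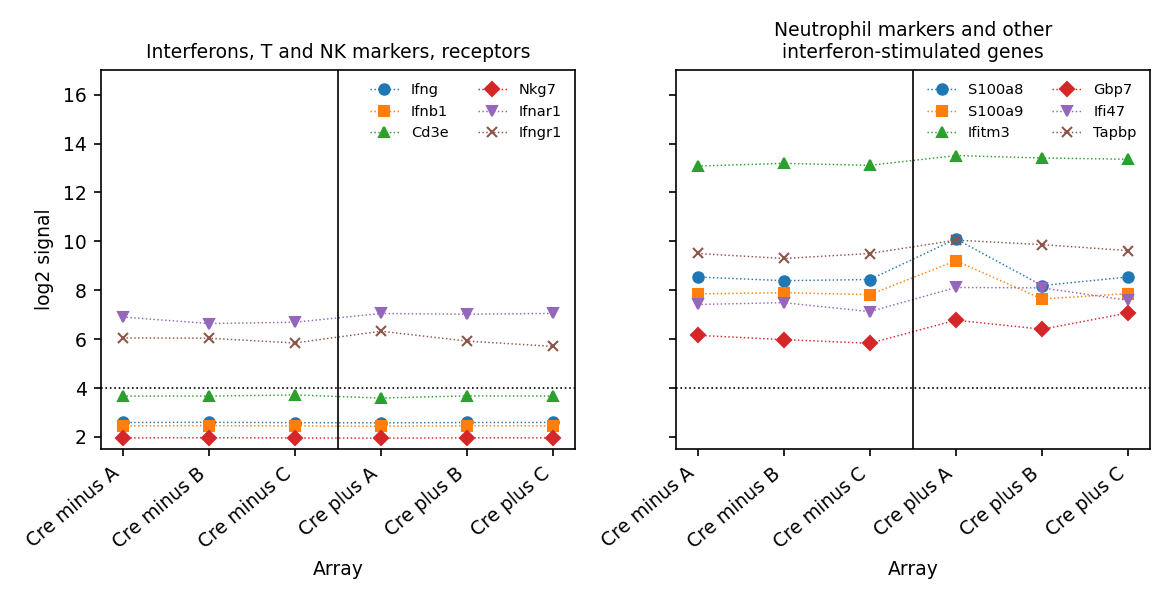
Log2 signal (vertical axis) in each of the 6 arrays for interferon genes, T and NK markers and receptors (left) and for neutrophil markers and other interferon-stimulated genes (right), with the filter of 4 dotted and lines joining the values of a gene only for the eye. Ifng, Ifnb1, Cd3e and Nkg7 lie under 4 in every array, and S100a8 and S100a9 are highest in Cre plus A.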

How the data were processed

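Whole-liver RNA was measured on 6 arrays, 3 Cre plus and 3 Cre minus, grouped by the titles in the labels. The values deposited by the authors are log2 signals made with GCRMA, of unstated version, per the submitters' processing notes, and were used without further scaling. Arrays have no read depth, and precision is limited by how few there are. Of 45101 probe sets, 64 controls were left out. Of the others 34945 were paired with 1 symbol by the platform annotation, 932 with several and 9160 with none here. Symbols were checked through the Entrez ID against RefSeq GRCm38.p6, which matched 34754, and 0 changed. A probe set was kept when its log2 value exceeded 4 on 3 or more of the 6 arrays, and each gene was read from its brightest kept single-symbol probe set.

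The groups were compared by limma's lmFit and eBayes (limma 3.58.1 under R 4.3.3), two-sided, no block, with Benjamini-Hochberg adjustment over 8554 genes. All adjusted p-values are limma's. The fit was tested on simulated data. The members, classes and lists were chosen with earlier results of these data known, and no list was tested as a set. The text gives all 37 members and, for other lists, up to 4 tested genes of smallest p, beside genes chosen after their values were seen (Ifng, Ifnb1, Ifngr1, Socs1, S100a8, S100a9, Ccr2, Cxcr2, Csf3r, Itgam, Chil3, Cd3e, Nkg7). Of the 27 tested members 8 had several kept probe sets, and in 4 of these, Ddx58, Ifi35, Parp14 and Rsad2, the signs disagreed. The labels do not state whether the letters A, B and C pair the arrays, and the main fit did not pair them. Deviations from the group means correlated at -0.15 for A, -0.10 for B and 0.02 for C. Between Cre minus and Cre plus arrays of different letters they correlated at -0.09 to 0.19. With so few arrays per group, these correlations cannot decide whether the letters mark pairs. The 15 alternatives were 2 scalings, 2 filters, a trend and robust prior, 2 rules for probe sets, array weights, a replicate block and each array left out.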

Additional observations from a re-analysis of the deposited data

How the results depend on the processing

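No member passed an adjusted p under 0.05 over all genes in any of the 15 alternatives, where the smallest adjusted p of any member ran from 0.0686 (without Cre plus B) to 0.437 (without Cre minus A). The count of all genes that passed, 2, became 0 with no filter, 56 when the filter was raised to 6, 0 with the replicate block, and 0 to 13 with an array left out. The 4 members higher at an unadjusted p under 0.05 became 8 with the replicate block and 1 to 6 with an array left out. Whether the letters used for the block mark pairs is not stated in the labels. The replicate block changed no other call. Median differences ranged from 0.01 to 0.38 over all members, 0.08 to 0.34 over the type I-like and 0.004 to 0.39 over the IFN-gamma-like members. In each of the 3 the lowest value was without Cre plus A. The median shift in Cre plus C, 0.004, ranged from -0.04 to 0.21 with an array left out, the highest without Cre minus A, and was -0.004 with a common median and -0.01 with quantile normalization.

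Over single members and alternatives, the sign turned 23 times and held 370 times, with turns in 12 of the 27 members, none of which had passed. With an array left out the differences ranged from -0.22 to 0.10 for Irf1, -0.042 to 0.034 for Irf8, -0.24 to 0.040 for Irf9, -0.036 to 0.60 for Oas1a, -0.06 to 0.34 for Oasl1, -0.22 to 0.47 for Rsad2, -0.061 to 0.10 for Ifi35, -0.29 to 0.16 for Usp18, -0.23 to 0.88 for Gbp6, -0.014 to 0.40 for Igtp and -0.066 to 0.10 for Cxcl10. Irf8 was 0.0075 with a common median and 0.0031 with array weights, and Cxcl10 was -0.0018 with quantile normalization. With the mean of probe sets Ddx58 was -0.22 and Ifi35 -0.027, and without the _x_at and _s_at kinds Ifi35 was -0.080, since their probe sets disagree. Low signal, under 4 in every array, limits what can be read from Ifng, Ifnb1, Socs1, Mx1, Mx2, Oas3, Ifit2 and Cmpk2. The same limit holds for the T and NK cell markers and the B cell markers.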
